A study of Mus musculus with 10 samples.

Results

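The collagen genes of the mouse were followed in hepatic stellate cells given amphiregulin. All protein-coding genes whose symbol has the form Col, number, a, number were taken, which gave 44 genes of the 36047 genes with a matched transcript. Of these, 28 had enough counts to be tested, among 13362 tested genes. Hepatic stellate cells are the vitamin A-storing cells beside the liver sinusoids, and they can turn into the matrix-producing cells of liver fibrosis. Areg, short for amphiregulin, binds and activates the receptor of epidermal growth factor. The Areg group consisted of 5 libraries of cells that were stimulated with recombinant mouse Areg at 500 ng/mL for 4 h. The control group consisted of 5 libraries kept for the same 4 h without Areg. In both groups the cells were quiescent hepatic stellate cells of male C57BL/6 mice, had been in culture for 5 h beforehand and were held in starving media. The labels give no age. Nor do they state that replicates were separate mice or dishes, and the p-values then describe only how these libraries spread, which can be technical variation.

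Collagens are the main structural proteins of the extracellular matrix. Each molecule is built from 3 chains that wind around each other, and the winding requires a repeat of glycine followed by 2 other residues along the chain. Fibrillar collagens form the banded fibrils that build up in a scarred liver, network collagens form the mesh of basement membranes, FACIT collagens sit on the surface of fibrils and collagen VI forms beaded microfibrils around cells. Transmembrane collagens are held in the cell membrane, multiplexins lie in basement membrane zones, and collagen VII anchors epithelia to the tissue below. In the liver, activated stellate cells are known as a major source of the fibrillar collagens.

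The glycine repeat is visible in the coding sequence as a GGN codon followed by 2 others, again and again. It is shown here because these codons are rich in G and the fold changes of all tested genes, given below, ran with GC content. A stretch of 72 coding bases is shown from 5 genes. Col1a2 and Col6a3 stand for the fibrillar and microfibril genes that were lower with Areg, and Col5a2 (fibrillar), Col4a2 (network) and Col13a1 (transmembrane) for genes that were not called. Capitals mark the GGN codons. The stretches were read 5′ to 3′ from the GENCODE M21 transcripts of GRCm38, at bases 636 to 707 (Col1a2), 999 to 1070 (Col5a2), 4907 to 4978 (Col6a3), 2684 to 2755 (Col4a2) and 1874 to 1945 (Col13a1) of the transcript.
Col1a2: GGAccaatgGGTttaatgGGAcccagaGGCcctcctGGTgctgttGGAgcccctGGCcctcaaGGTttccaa
Col5a2: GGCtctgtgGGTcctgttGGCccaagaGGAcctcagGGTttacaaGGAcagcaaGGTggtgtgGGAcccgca
Col6a3: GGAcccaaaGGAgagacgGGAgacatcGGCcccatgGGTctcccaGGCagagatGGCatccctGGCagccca
Col4a2: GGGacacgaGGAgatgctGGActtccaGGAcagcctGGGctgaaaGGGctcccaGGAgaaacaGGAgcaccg
Col13a1: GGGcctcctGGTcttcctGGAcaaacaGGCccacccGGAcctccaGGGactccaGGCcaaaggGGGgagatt
These stretches had a GC content of 59.7% in Col1a2, 61.1% in Col5a2, 65.3% in Col6a3, 62.5% in Col4a2 and 65.3% in Col13a1. Runs of at least 5 such triplets were found in the coding sequence of all 28 tested collagens. The longest unbroken run held 216 to 344 triplets in the fibrillar collagens, with 338 in Col1a1, 339 in Col1a2 and 344 in Col3a1. It held 39 to 66 triplets in the tested network collagens and 45 to 87 in the tested microfibril collagens. The median GC content was 64.2% inside the runs, 55.65% in the rest of the coding sequence and 49.95% outside the coding sequence. The runs were richer in GC than the rest of the coding sequence in 27 of the 28 genes.

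The libraries held 14365027 to 20057962 estimated counts in the Areg group and 10125184 to 17566891 in the control group. On the leading principal component, controls 3 and 4 lay at 46.6 and 28.6, away from the other 8 libraries at -16.5 to 0.455. The labels do not set them apart, so the fits without them below rest on a choice made from these data. CPM are counts relative to the library total, scaled by the TMM factors. All 10 stellate cell markers were detected at a mean of at least 1 CPM, and their sum was 6253 to 6417 CPM in Areg libraries, against 6782 to 7303 CPM in control libraries. Most of that difference lay in Ecm1 (a mean of 2946 CPM with Areg and 3537 CPM in control) and Reln (1705 CPM with Areg and 1897 CPM in control). Lrat (32.4 CPM with Areg and 44.9 CPM in control), Cygb (21.9 CPM with Areg and 31.0 CPM in control) and Lhx2 (18.6 CPM with Areg and 23.2 CPM in control) had lower means as well. Des, Pdgfrb and Colec11 had slightly lower means with Areg. Only Rgs5 (844.5 CPM with Areg and 802.8 CPM in control) and Hgf (513.2 CPM with Areg and 469.2 CPM in control) had higher means with Areg. The markers of liver endothelial cells (8 of 8, 4638 to 4767 CPM in Areg libraries and 4618 to 5039 CPM in control libraries), hepatocytes (8 of 8, 1405 to 1773 CPM in Areg libraries and 1286 to 1992 CPM in control libraries) and macrophages (8 of 8, 493.8 to 531.8 CPM in Areg libraries and 497.7 to 546.1 CPM in control libraries) were also present in both groups. Of 7 portal fibroblast markers 6 reached that mean, with sums of 12.2 to 14.9 CPM in Areg libraries and 12.5 to 17.4 CPM in control libraries. Of 5 vascular smooth muscle markers 3 reached it, with sums of 165.2 to 172.4 CPM in Areg libraries and 140.6 to 168.8 CPM in control libraries. Of 6 cholangiocyte markers 2 reached it, with sums of 82.0 to 95.2 CPM in Areg libraries and 39.7 to 49.8 CPM in control libraries, nearly all of it Spp1 (a mean of 81.9 CPM with Areg and 39.7 CPM in control). Krt19, Krt7, Epcam and Cldn7 had means under 1 CPM in both groups, each lower with Areg than in control. None of the 6 lymphocyte markers and none of the 5 mesothelial markers reached it, and no marker of any list was at 0 in all libraries. In these bulk samples, fewer cells of a type and less RNA per cell cannot be told apart, and collagen IV, XV and XVIII are also made by endothelial cells. The part of these marker levels in the collagen results was not tested.

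Collagen transcripts were dominated by the basement membrane chains. Levels between genes are given as TPM, which take transcript length into account and add up to a common total per library. The 44 genes together held 1471, 1491, 1495, 1477 and 1466 TPM in Areg libraries 1 to 5, against 1914, 1694, 1564, 1621 and 1573 TPM in control libraries 1 to 5. Every Areg library lay below every control library, and the mean was 1480 ± 12.7 TPM with Areg and 1673 ± 144 TPM in control (SD, n = 5 each, as for every mean below), a ratio of 0.884. Control 1 was the highest library by far. Network collagens held 64.8% of the family's TPM in Areg libraries and 64.5% in control libraries. FACIT collagens held 19.4% with Areg and 19.5% in control, fibrillar collagens 9.16% with Areg and 9.61% in control, microfibril collagens 2.99% with Areg and 3.09% in control, and transmembrane collagens 2.83% with Areg and 2.45% in control. Mean TPM shares of the classes were thus close in both groups. In CPM, fibrillar collagens held 9.87% with Areg and 10.5% in control, and microfibril collagens 3.08% with Areg and 3.38% in control. Network collagens held 65.9% with Areg and 65.6% in control, and FACIT collagens 18.9% with Areg and 18.4% in control. Transmembrane collagens held 1.64% with Areg and 1.46% in control. These shifts in shares were not tested.

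Col4a1 was the most abundant collagen gene, at 628.7 ± 32.1 TPM in Areg libraries and 708.5 ± 41.2 TPM in control libraries. It was followed by Col4a2 at 329.2 ± 13.9 TPM with Areg and 367.3 ± 39.6 TPM in control and by Col14a1 at 265.5 ± 10.8 TPM with Areg and 301.1 ± 41.4 TPM in control. Col3a1 came next at 64.7 ± 6.05 TPM with Areg and 74.9 ± 23.2 TPM in control, then Col13a1 at 40.1 ± 2.65 TPM with Areg and 39.5 ± 3.96 TPM in control. Among protein-coding genes of the control libraries, Col4a1, Col4a2 and Col14a1 ranked 176th, 359th and 441st. Col5a1 (22.0 ± 1.02 TPM with Areg and 27.8 ± 2.08 TPM in control) and Col1a2 (20.9 ± 1.31 TPM with Areg and 27.3 ± 2.91 TPM in control) did not differ from each other beyond their spread. In the Areg libraries the same held for Col6a1 (17.5 ± 0.364 TPM), Col6a3 (16.4 ± 3.14 TPM) and Col16a1 (16.3 ± 3.44 TPM). In the control libraries these genes had 21.1 ± 2.44, 17.4 ± 2.57 and 18.5 ± 4.52 TPM, and the ratio of Col6a3 to Col6a1 was below 1 in all 5 controls, at 0.827 ± 0.0906. Col1a1, the gene of the other collagen I chain, stood at 7.39 ± 0.655 TPM in Areg libraries and 9.53 ± 1.43 TPM in control libraries. The chains of collagen I, whose heterotrimer holds more of the Col1a1 product, were thus not matched in these TPM values: the ratio of Col1a1 to Col1a2 was 0.355 ± 0.0406 with Areg and 0.348 ± 0.0309 in control.

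**Figure D1:**
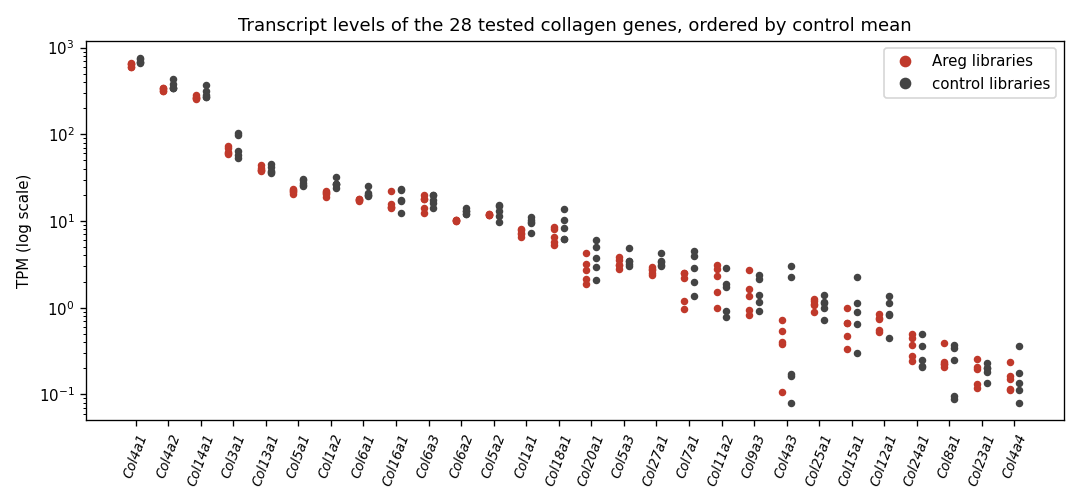
TPM of the 28 tested collagen genes on a log axis, ordered by control mean, with a point for each Areg library (red) and each control library (grey). Col4a1, Col4a2 and Col14a1 stand apart from the rest, with Col14a1 at a mean of 265.5 TPM and the next gene, Col3a1, at 64.7 TPM in Areg libraries.

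The comparison of Areg with control asked which collagen genes differ after 4 h of Areg. Of the 28 tested collagens, 7 were lower and 0 higher with Areg at an edgeR adjusted p under 0.05, while 8.32% of all 13362 tested genes were lower and 8.34% higher, 16.7% together. All 7 were fibrillar or microfibril collagens. The differences were small, with log2 fold changes of -0.34 to -0.23 in the called genes and -0.34 to 0.32 over the 28. The median log2 fold change was -0.10 over the tested collagens and -0.01 over all tested genes, and 21 of the 28 collagens lay below 0. All 5 Areg libraries lay below all 5 control libraries for 7 collagens, and above them for 0, against 7.06% and 7.64% of all tested genes in these directions (14.7% in either). These were the called genes other than Col1a1, plus Col4a1. By class, 4 of 9 tested fibrillar collagens and 3 of 3 tested microfibril collagens were called lower, against 0 of 5 network, 0 of 5 FACIT, 0 of 3 transmembrane and 0 of 2 multiplexin collagens and 0 of 1 anchoring fibril collagen. At an unadjusted p under 0.05, 9 collagens were lower and 0 higher. A gene that was not called is not thereby shown to be unchanged, and the difference between classes was not tested.

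**Figure D2:**
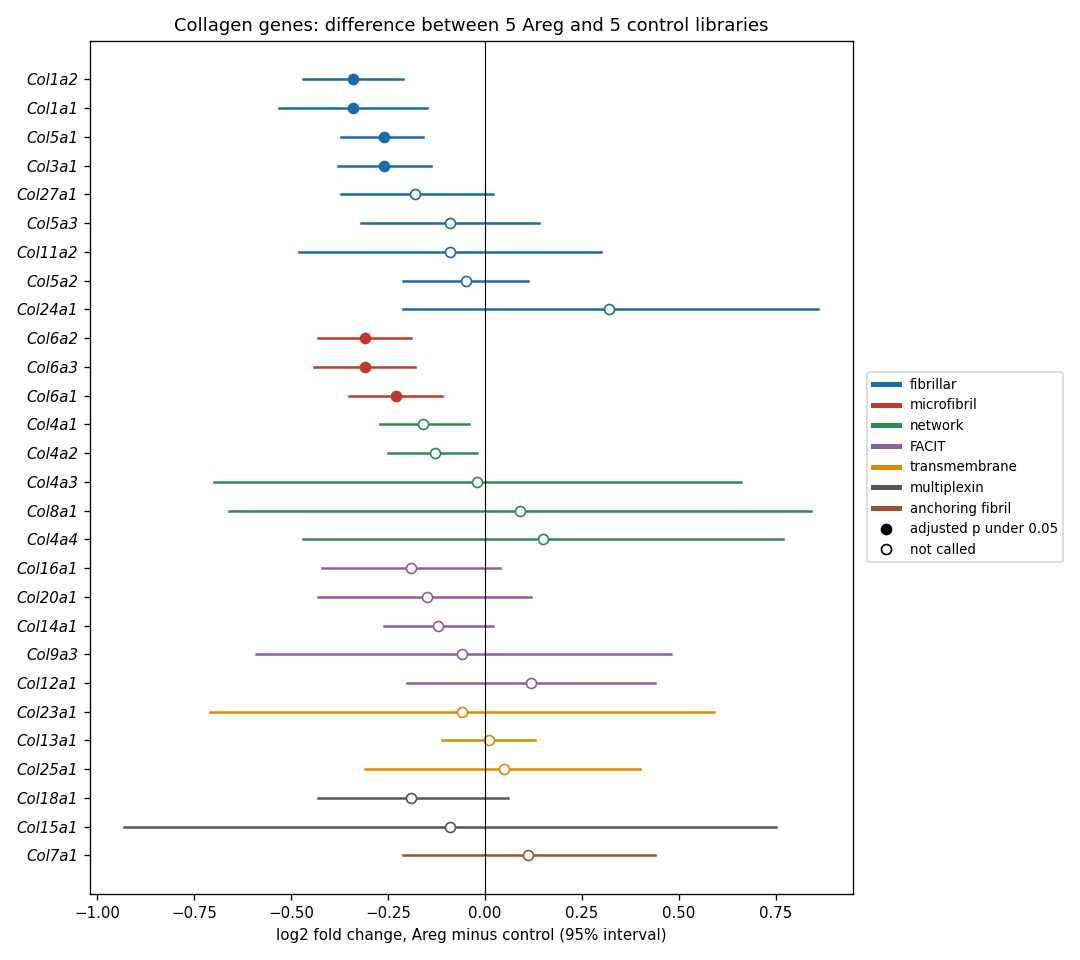
Log2 fold change of each tested collagen gene, Areg over control, with its 95% interval, grouped by class, with filled points for genes at an edgeR adjusted p under 0.05. The 7 filled points are fibrillar (blue) and microfibril (red), and the widest interval, of the scarce gene Col15a1, runs from -0.93 to 0.75.

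Genes of the fibrillar class had a median log2 fold change of -0.18 over 9 tested members. Col1a2 encodes the alpha 2 chain of collagen I, the most abundant collagen of scar tissue (chromosome 6, 4504814 to 4541544, GRCm38). It stood at 69.9, 66.8, 71.2, 61.5 and 65.3 CPM in Areg libraries 1 to 5, against 94.0, 83.8, 87.2, 84.9 and 74.3 CPM in control libraries 1 to 5. All Areg values lay below all control values, and the log2 fold change was -0.34 (SE 0.0626, edgeR adjusted p = 0.00168), a fold of 0.789 with a 95% interval of 0.720 to 0.865. Col1a1 encodes the other chain (chromosome 11, 94936224 to 94953042). It stood at 25.9, 25.7, 29.1, 28.8 and 23.8 CPM in Areg libraries, against 36.8, 35.5, 34.6, 35.8 and 25.8 CPM in control libraries. Here the groups overlapped, because control 5 fell within the Areg range. Its log2 fold change was -0.34 (SE 0.0895, edgeR adjusted p = 0.0167), and the adjusted p rose to 0.05 without Areg replicate 2 and to 0.0534 without Areg replicate 5, both short of the threshold. With trends in length and GC content removed it was -0.10 (adjusted p = 0.427).

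Col3a1 encodes the chain of collagen III, which shares fibrils with collagen I (chromosome 1, 45311538 to 45349706). Its levels were 147.0, 151.2, 150.9, 145.4 and 134.9 CPM in Areg libraries, against 192.8, 184.2, 161.4, 175.9 and 159.9 CPM in control libraries. The groups did not overlap, and the log2 fold change was -0.26 (SE 0.0562, edgeR adjusted p = 0.00491). With a transcript length offset it was -0.17 (adjusted p = 0.538). Col5a1 encodes a chain of collagen V, which sits inside collagen I fibrils and limits their width (chromosome 2, 27886425 to 28039514). It stood at 119.2, 115.2, 115.6, 111.2 and 106.6 CPM in Areg libraries, against 143.4, 131.3, 145.6, 131.8 and 129.5 CPM in control libraries. The groups again did not overlap, and the log2 fold change was -0.26 (SE 0.0494, edgeR adjusted p = 0.00200). With trends in length and GC content removed it was -0.02 (adjusted p = 0.824).

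The gene of the partner chain of collagen V, Col5a2, lay at 46.9, 47.3, 47.4, 48.0 and 49.1 CPM in Areg libraries, against 56.6, 51.0, 39.5, 46.2 and 52.9 CPM in control libraries. Its Areg values were tight and lay inside the control range, with the lowest value in control 3, and its log2 fold change of -0.05 (95% interval -0.21 to 0.11) was not called (edgeR adjusted p = 0.688). Without controls 3 and 4 it was -0.16 (edgeR adjusted p = 0.0313), and with the length and GC trends removed as well it was -0.09 (adjusted p = 0.205). The TPM ratio of Col5a1 to Col5a2 was 1.86 ± 0.111 in Areg libraries and 2.24 ± 0.492 in control libraries, where controls 3 and 4 had the highest ratios, 2.88 and 2.61. Col3a1 and Col5a2 are neighbours on chromosome 1 with 24614 bases between them, and their edgeR results stood on different sides of the threshold. The difference between them was not tested.

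The other fibrillar genes were scarce. Col5a3, a further collagen V chain, averaged 12.1 ± 1.51 CPM with Areg and 12.9 ± 1.88 CPM in control. Col27a1, a fibrillar collagen known from cartilage, averaged 8.39 ± 0.586 CPM with Areg and 9.53 ± 0.798 CPM in control, with a log2 fold change of -0.18 (95% interval -0.37 to 0.02). Col11a2, a chain of the cartilage collagen XI, averaged 3.00 ± 0.690 CPM with Areg and 3.19 ± 0.626 CPM in control. Col24a1 averaged 1.39 ± 0.406 CPM with Areg and 1.08 ± 0.230 CPM in control. Its log2 fold change of 0.32 was the highest among the 28 tested collagens, with a 95% interval of -0.21 to 0.86, and none of these 4 genes was called.

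**Figure D3:**
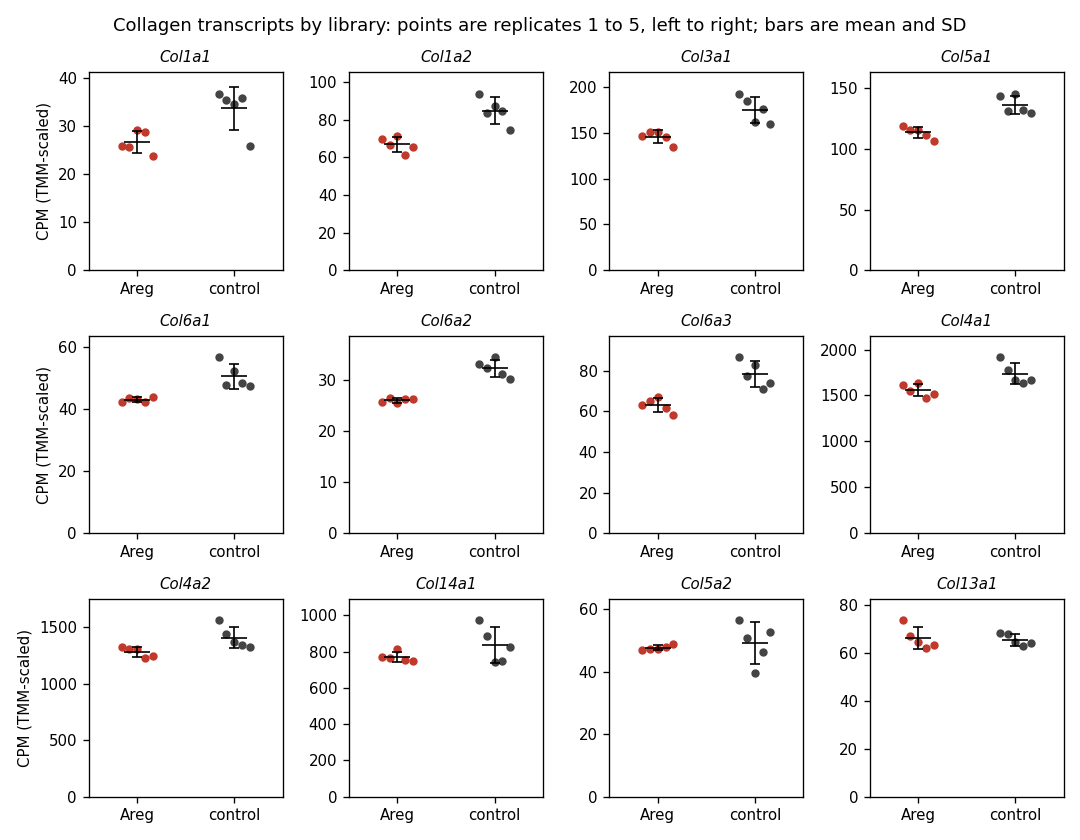
CPM of 12 collagen genes in each library, with Areg in red on the left and control in grey on the right, points in the order of replicates 1 to 5, and bars for the mean and SD. Col1a2, Col3a1, Col5a1, Col6a1, Col6a2, Col6a3 and Col4a1 show no overlap, while Col1a1 overlaps through control 5, and Col4a2, Col14a1, Col5a2 and Col13a1 overlap.

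The 3 chains of collagen VI, the beaded microfibril that links cells to the surrounding matrix, were all lower with Areg. Col6a1 (chromosome 10, 76708792 to 76726168) stood at 42.2, 43.5, 43.3, 42.3 and 44.0 CPM in Areg libraries, against 56.8, 47.7, 52.2, 48.3 and 47.5 CPM in control libraries. Col6a2 (chromosome 10, 76595762 to 76623630) stood at 25.7, 26.6, 25.6, 26.4 and 26.3 CPM in Areg libraries, against 33.2, 32.5, 34.6, 31.3 and 30.3 CPM in control libraries. Col6a3, the longest chain (chromosome 1, 90765923 to 90843971), stood at 63.3, 65.2, 67.2, 61.5 and 58.0 CPM in Areg libraries, against 86.8, 77.2, 82.5, 71.02 and 73.8 CPM in control libraries. In none of the 3 did an Areg library reach the lowest control library, and the spread of Col6a1 and Col6a2 was narrower in the Areg group (SD 0.77 and 0.446 CPM) than in the control group (4.01 and 1.66 CPM). The log2 fold changes were -0.23 for Col6a1 (SE 0.0582, edgeR adjusted p = 0.0124), -0.31 for Col6a2 (SE 0.0563, edgeR adjusted p = 0.00161) and -0.31 for Col6a3 (SE 0.0622, edgeR adjusted p = 0.00295). With trends in length and GC content removed, the calls of Col6a1 (-0.06, adjusted p = 0.525) and Col6a2 (-0.11, adjusted p = 0.221) were lost, and with a transcript length offset that of Col6a3 was (-0.06, adjusted p = 0.82). Col6a1 and Col6a2 are neighbours on the same strand, 85161 bases apart. Their TPM ratio was 1.72 ± 0.0423 in Areg libraries and 1.64 ± 0.104 in control libraries. The further collagen VI genes Col6a4, Col6a5 and Col6a6 had too few counts to be tested, at no more than 0.733 CPM in any library.

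Network collagens held most collagen transcripts, and none of the 5 tested genes was called in the main test. Col4a1 and Col4a2 encode the chains of the common basement membrane collagen IV. They start beside each other on chromosome 8 and run apart, with an overlap of 22 bases at their first exons (Col4a1, 11198423 to 11312826; Col4a2, 11312805 to 11449287). Col4a1 stood at 1615, 1551, 1638, 1472 and 1518 CPM in Areg libraries, against 1921, 1781, 1671, 1641 and 1672 CPM in control libraries. The groups did not overlap, but the highest Areg value, 1638 CPM, and the lowest control value, 1641 CPM, nearly touched. Its log2 fold change was -0.16 (SE 0.0539, 95% interval -0.27 to -0.04), and its edgeR adjusted p of 0.0555 missed the threshold.

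Col4a2 stood at 1329, 1306, 1311, 1227 and 1244 CPM in Areg libraries, against 1564, 1439, 1371, 1342 and 1328 CPM in control libraries. The groups met at 1329 and 1328 CPM, and the log2 fold change was -0.13 (95% interval -0.25 to -0.02, edgeR adjusted p = 0.0902). The TPM ratio of Col4a1 to Col4a2 was 1.92 ± 0.177 with Areg and 1.94 ± 0.167 in control. Without controls 3 and 4 both genes were called lower (edgeR adjusted p = 0.00564 for Col4a1 and 0.0186 for Col4a2), but not with the length and GC trends removed as well, where Col4a1 was at -0.06 (adjusted p = 0.337) and Col4a2 at 0.03 (adjusted p = 0.721). Over all libraries with both trends removed they were at 0.04 and 0.13, and neither was called. Col4a3 and Col4a4, chains of a collagen IV known from the kidney and starting 71 bases apart, averaged 0.928 ± 0.207 and 0.784 ± 0.181 CPM with Areg, against 0.996 ± 0.465 and 0.695 ± 0.222 CPM in control. Col8a1, a short-chain network collagen of vessel walls, averaged 0.793 ± 0.235 CPM with Areg and 0.684 ± 0.383 CPM in control. The 95% intervals of the log2 fold change were -0.70 to 0.66 for Col4a3, -0.47 to 0.77 for Col4a4 and -0.66 to 0.84 for Col8a1, so that changes as large as those of the called collagens were not detectable at this depth.

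FACIT collagens coat the surface of fibrils, and Col14a1 was by far the most abundant of them. Its gene lies on chromosome 15 (55307750 to 55520803). It stood at 770.6, 763.7, 813.3, 753.4 and 748.4 CPM in Areg libraries, against 974.5, 884.6, 740.6, 747.4 and 827.6 CPM in control libraries. Controls 3 and 4 lay below all Areg libraries and the other controls above them. Its log2 fold change of -0.12 (95% interval -0.26 to 0.02) was not called (edgeR adjusted p = 0.241), and without controls 3 and 4 it was -0.22 (edgeR adjusted p = 0.00322). With the length and GC trends removed it was -0.07 (adjusted p = 0.392) over all libraries and -0.16 (adjusted p = 0.0054) without those controls. Because those controls held its lowest control values, leaving them out widens the difference by itself, and these p-values are no separate support.

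Col16a1, found near the surface of several cell types, stood at 38.9, 36.3, 36.7, 29.8 and 36.3 CPM in Areg libraries, against 48.7, 45.0, 38.3, 29.9 and 39.9 CPM in control libraries. Replicate 4 was the lowest of each group, and the log2 fold change was -0.19 (95% interval -0.42 to 0.04, edgeR adjusted p = 0.256). Without control replicate 4 it was -0.27 (edgeR adjusted p = 0.0437), and with the length and GC trends removed over all libraries it was 0.04 (adjusted p = 0.902). Col20a1 averaged 5.71 ± 0.803 CPM with Areg and 6.34 ± 0.975 CPM in control. Col12a1, a close relative of Col14a1, averaged 3.70 ± 0.527 CPM with Areg and 3.38 ± 0.472 CPM in control, and Col9a3, a chain of the cartilage collagen IX, 1.29 ± 0.357 CPM with Areg and 1.37 ± 0.355 CPM in control. None of these was called.

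Among the transmembrane collagens, Col13a1, a collagen of cell adhesion sites, differed least between the groups for its depth. It stood at 73.9, 67.0, 64.5, 62.2 and 63.5 CPM in Areg libraries, against 68.4, 68.0, 64.8, 62.8 and 64.1 CPM in control libraries. The groups overlapped throughout, and the log2 fold change was 0.01 with a 95% interval of -0.11 to 0.13 (edgeR adjusted p = 0.913). That interval did not hold the fitted changes of the 7 called genes, but the difference between genes was not tested. Col25a1 averaged 3.47 ± 0.512 CPM with Areg and 3.32 ± 0.728 CPM in control, and Col23a1 0.625 ± 0.193 CPM with Areg and 0.638 ± 0.109 CPM in control.

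The multiplexin Col18a1, whose product releases endostatin, stood at 19.3, 20.7, 17.9, 14.9 and 15.9 CPM in Areg libraries, against 20.8, 20.7, 25.9, 17.9 and 16.4 CPM in control libraries. The groups overlapped, and its log2 fold change was -0.19 (95% interval -0.43 to 0.06, edgeR adjusted p = 0.282). Col15a1, the other multiplexin, averaged 1.08 ± 0.230 CPM with Areg and 1.18 ± 0.789 CPM in control, with control values spread from 0.282 to 2.23 CPM. The anchoring fibril gene Col7a1 averaged 4.03 ± 0.488 CPM with Areg and 3.71 ± 0.731 CPM in control, with a log2 fold change of 0.11 (95% interval -0.21 to 0.44). None of the 3 was called.

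Of the 15 collagens with a mean of at least 10 CPM, 7 were lower, and of the 13 tested collagens under that level 0 were, a level that was chosen after the values were seen. The most abundant genes, Col4a1, Col4a2 and Col14a1, were not among the called ones. The 16 members that were not tested reached at most 1.394 CPM in any library (Col26a1). They were the fibrillar genes Col2a1 and Col11a1, the network genes Col4a5, Col4a6, Col8a2 and Col10a1, the FACIT genes Col9a1, Col9a2, Col19a1 and Col22a1, Col6a4, Col6a5, Col6a6, the transmembrane gene Col17a1, and Col26a1 and Col28a1. Col9a1 was at 0 in all libraries, where a count of 0 allows up to 0.296 CPM in the shallowest library, taking 3 counts as the limit for counting error alone. Col22a1 averaged 0.698 ± 0.272 CPM with Areg and 0.346 ± 0.156 CPM in control, with overlapping groups and no test. Of the 28 tested members, 23 lay above the filter's level of 0.621 CPM in all libraries and 2 only in all Areg libraries.

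Collagen transcripts are long, so the differences were set against transcript length. The median transcript length, weighted by TPM, was 4817 bases over the tested collagens and 2349 bases over all tested genes. Of the 28 collagens, 19 lay in the longest 2 of 10 equal bins of all tested genes. Length moved little with the fold change over all genes. The median log2 fold change was 0.016 in the shortest bin and -0.018 in the longest bin, and 11.1% of the longest bin was lower with Areg, against 2.25% of the shortest. Of the 14 longer collagens 4 were lower, and of the 14 shorter ones 3 were. Against the median of its own length bin, the collagens' median difference was -0.09, and 21 of 28 lay below it.

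The contrast between long and short genes varied among the controls. The median log2 level of the longest bin was set against that of the shortest in each library, relative to the average library. The difference was between -0.048 and 0.018 in the Areg libraries, against 0.341, 0.021, -0.275, -0.097 and 0.048 in controls 1 to 5. Control 1, with the highest contrast, also had the highest collagen TPM sum, and control 3, with the lowest contrast, had the lowest sum among controls. The orders did not match throughout: control 5, at 0.048, had 1573 TPM, and control 4, at -0.097, had 1621 TPM. With a smooth trend in transcript length removed from each library, 8 collagens were lower, the 7 and Col4a1 (log2 fold change -0.14, edgeR adjusted p = 0.0306).

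**Figure D4:**
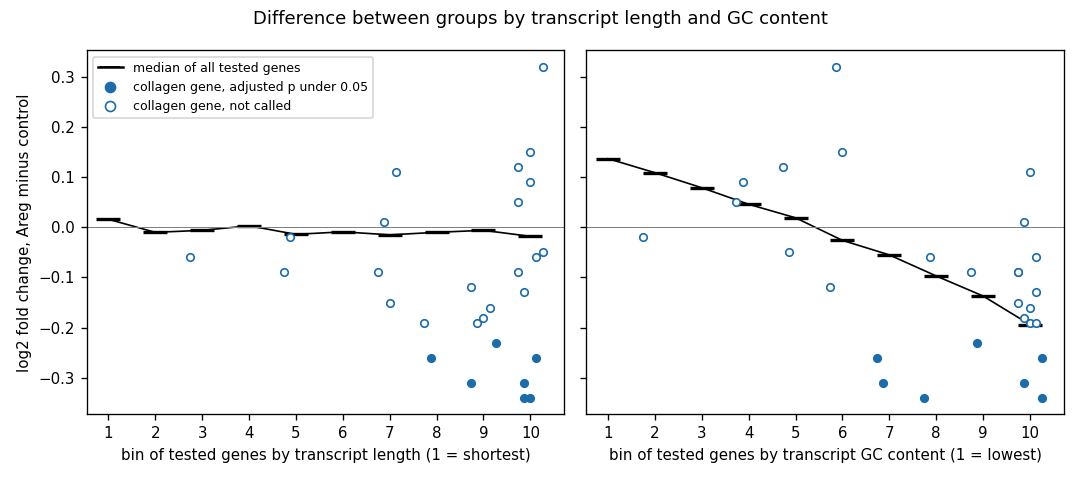
Log2 fold change, Areg over control, of the tested collagens (blue, filled where the edgeR adjusted p is under 0.05) against the bin of transcript length (left) and of GC content (right), from 1 for the lowest to 10 for the highest, with the median of all tested genes of each bin in black. Points of a bin are spread sideways for legibility. The line is nearly flat over length and falls from 0.137 in the GC-poorest bin to -0.194 in the GC-richest bin, where 14 of the 28 collagens lie.

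Over all tested genes, GC content followed the fold change more closely than length did. The median GC content was 57.3% over the tested collagens and 50.2% over all tested genes, and 14 of the 28 collagens lay in the most GC-rich bin. Of these 14 collagens 3 were lower (21.4%), and of the 14 in the other bins 4 were (28.6%). Called collagens had a median GC content of 56.7%, and those not called 57.9%. Over all tested genes the median log2 fold change was -0.19 in that bin and 0.137 in the GC-poorest bin. In the richest bin 23.2% of genes were lower and 1.05% higher with Areg, against 0.524% lower and 17.0% higher in the poorest. Set against the median of its own GC bin, the collagens' median difference was 0.03, and 10 of 28 lay below it. Col6a3 lay 0.26 below, Col1a2 0.24 below and Col3a1 0.21 below, and Col13a1 lay 0.21 above.

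The libraries differed in the same measure. The median log2 level of the GC-richest bin was set against that of the GC-poorest in each library, relative to the average library. The difference was -0.131, -0.221, -0.131, -0.166 and -0.188 in Areg libraries 1 to 5. In controls 1 to 5 it was -0.006, -0.004, 0.562, 0.345 and -0.049. Every Areg library lay below every control library, and controls 3 and 4 stood highest. With a smooth GC trend removed from each library, 3 collagens remained lower, Col1a2 (log2 fold change -0.23, edgeR adjusted p = 0.0148), Col6a3 (-0.27, adjusted p = 0.00499) and Col3a1 (-0.20, adjusted p = 0.0422). Col1a1, Col5a1, Col6a1 and Col6a2 then had log2 fold changes of -0.16, -0.10, -0.10 and -0.15 and were not called, and Col4a1 had 0.00.

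With the trends in length and GC removed together, the same 3 genes were lower, Col1a2 at -0.18, Col6a3 at -0.20 and Col3a1 at -0.16, and Col13a1 was higher at 0.21 (edgeR adjusted p = 0.0296). The median over the 28 collagens was then 0.04. Without controls 3 and 4, 11 collagens were lower in the fit with no trend removed and 4 with both trends removed, Col14a1 besides the 3. By its construction this removal takes out any difference between the groups that runs with GC content or length, whatever its source. The family's median lay below 0 in the fit with no trend removed and above 0 with both removed, while Col1a2, Col3a1 and Col6a3 were lower in both fits.

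**Figure D5:**
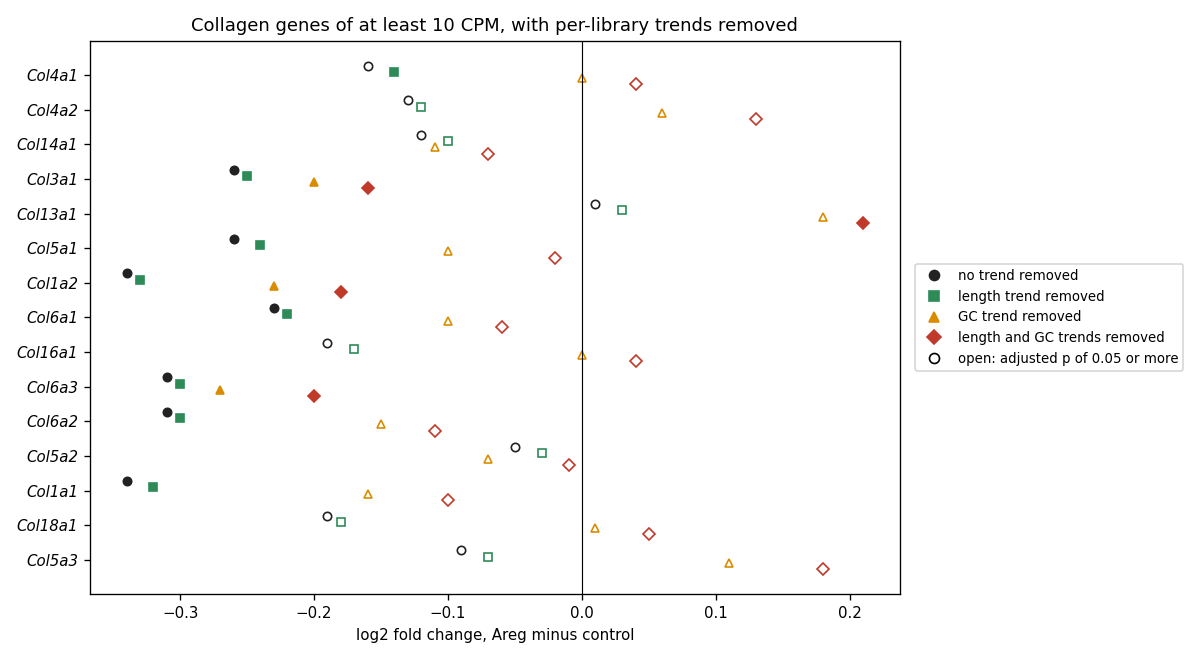
Log2 fold change, Areg over control, of the 15 collagens with a mean of at least 10 CPM with no trend removed (black circles) and with the length trend (green squares), the GC trend (orange triangles) or both (red diamonds) removed per library, filled where the edgeR adjusted p is under 0.05. Removing the length trend moves the points little, while removing the GC trend moves most of them toward or past 0 and leaves Col1a2, Col3a1 and Col6a3 called lower.

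The files gave 224 collagen transcripts, of which 106 were annotated as protein-coding, 70 as retained introns, 37 as processed transcripts and 11 as targets of nonsense-mediated decay. Short transcripts weigh more in TPM than in counts. A retained-intron transcript of 431 bases made up 24.9 ± 5.48% of the Col3a1 TPM with Areg and 19.8 ± 15.5% in control, while the full-length coding transcript of 5564 bases had 41.7 ± 2.18 TPM with Areg and 51.4 ± 5.43 TPM in control. For Col4a1, a decay transcript of 618 bases held 33.1 ± 4.34% with Areg and 29.0 ± 4.84% in control.

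Col6a3 showed the same effect. Its main long transcript, of 9001 bases, had 7.28 ± 0.525 TPM in Areg libraries and 10.1 ± 1.04 TPM in control libraries, while a fragment of 476 bases held 26.2 ± 9.85% of the gene's TPM with Areg and 19.0 ± 6.55% in control. On a log2(TPM + 1) scale, limma-trend called Col1a2, Col5a1 and Col6a2 alone among the collagens, and the log2 fold change of Col6a3 there was -0.09 (adjusted p = 0.718) and that of Col3a1 -0.16 (adjusted p = 0.588). Summed over protein-coding transcripts alone, the counts called the same 7 collagens. Col18a1 was divided between transcripts with different starts, a transcript of 4791 bases with 50.5 ± 6.26% of its TPM with Areg and 44.5 ± 5.86% in control and another of 5063 bases with 28.6 ± 8.60% with Areg and 28.9 ± 8.40% in control.

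The promoter windows of the fibrillar genes Col1a2 and Col3a1 are shown because these genes were lower in the fits with and without the trends. The motif matches and the GC content of their windows differ. They are RefSeq windows of GRCm38.p6 that run from upstream to just past the annotated start, on the plus strand at chr6:4505368-4505667 and chr1:45311288-45311587. Capitals mark matches on either strand. The motifs marked were the CCAAT box and 3 others. The TATA box was searched as TATAA. The GC box was searched as GGGCGG. The AP-1 element, a site of Fos and Jun proteins, was searched as TGANTCA. In Col3a1 TATAA matches on both strands, from base 134 of the window on the plus strand, and the matches overlap. Whether any match works as a promoter element was not tested.
Col1a2: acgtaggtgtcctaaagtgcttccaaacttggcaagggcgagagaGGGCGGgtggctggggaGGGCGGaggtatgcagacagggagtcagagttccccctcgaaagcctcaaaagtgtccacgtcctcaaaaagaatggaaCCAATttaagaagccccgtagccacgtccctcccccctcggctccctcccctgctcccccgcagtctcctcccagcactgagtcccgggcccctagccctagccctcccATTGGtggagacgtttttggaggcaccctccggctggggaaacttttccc
Col3a1: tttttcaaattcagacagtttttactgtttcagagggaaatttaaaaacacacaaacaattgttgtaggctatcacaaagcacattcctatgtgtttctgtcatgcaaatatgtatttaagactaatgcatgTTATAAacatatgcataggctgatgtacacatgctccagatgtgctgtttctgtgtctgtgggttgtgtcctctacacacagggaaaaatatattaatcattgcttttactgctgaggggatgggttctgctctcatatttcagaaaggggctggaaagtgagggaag
The window had a GC content of 61.0% in Col1a2 and 37.7% in Col3a1. The main GENCODE transcript of Col1a2 starts upstream of the RefSeq start used here, within the window. The RefSeq table held a window for 22 of the 28 tested collagens, 6 of the 7 called ones among them. A window with GGGCGG was found for 14 of these 22 genes, CCAAT for 8, TATAA for 3, TGANTCA for 1 (Col6a1) and CANNTG for 12. Of the 32851 windows of all genes, 35.7% held GGGCGG, 37.4% CCAAT, 24.9% TATAA, 7.81% TGANTCA and 72.3% CANNTG. Col6a2 and Col18a1 had more windows than the other genes, so the counts of genes are not shares of windows. CANNTG was searched as well but is not marked. Among the 6 called genes with a window, 3 held GGGCGG, 1 held CCAAT, 1 held TATAA, 1 held TGANTCA and 2 held CANNTG. No motif was common to all of them.

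Collagen chains are hydroxylated and glycosylated in the endoplasmic reticulum before they fold. Of 12 tested genes of these enzymes, 2 were lower (16.7%) and 0 higher with Areg, with a median log2 fold change of -0.11. Over all tested genes 8.32% were lower and 8.34% higher, with a median of -0.01. These lists were chosen with earlier results known and are described only by their counts. P4ha2, a catalytic subunit of prolyl 4-hydroxylase, was at 12.4 ± 1.21 CPM in Areg libraries and 16.2 ± 1.80 CPM in control libraries (log2 fold change -0.40, edgeR adjusted p = 0.0087). With the length and GC trends removed it was at -0.35 (adjusted p = 0.0203). Plod1, a lysyl hydroxylase, was at 69.0 ± 3.28 CPM with Areg and 79.9 ± 5.19 CPM in control (log2 fold change -0.21, edgeR adjusted p = 0.0166), and at -0.06 with the trends removed.

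Of 14 tested genes of collagen folding and export, 1 was lower (7.14%) and 1 higher, near the 8.32% and 8.34% of all tested genes, with a median of -0.04. Hspa5, the main chaperone of the endoplasmic reticulum, was higher at 1442 ± 39.7 CPM with Areg, against 1228 ± 117.0 CPM in control (log2 fold change 0.23, edgeR adjusted p = 0.0148). Sec24d, a coat protein of the vesicles that carry procollagen out, was lower at 135.5 ± 5.10 CPM with Areg and 150.2 ± 4.97 CPM in control (log2 fold change -0.15, edgeR adjusted p = 0.0298). Both were called with the trends removed as well.

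Procollagen is trimmed and cross-linked outside the cell, and 6 of 12 tested genes of these enzymes were lower (50.0%, against 8.32% of all tested genes) and 0 higher, with a median of -0.21. Adamts14 and Adamts2 encode proteases that remove the amino-terminal propeptide. Adamts14 was at 29.8 ± 2.33 CPM with Areg and 42.5 ± 4.84 CPM in control (log2 fold change -0.51, edgeR adjusted p = 0.000427), and Adamts2 at 59.8 ± 2.68 CPM with Areg and 72.8 ± 6.80 CPM in control (log2 fold change -0.28, edgeR adjusted p = 0.00647). Loxl1 and Loxl3 encode lysyl oxidase-like cross-linking enzymes, and their log2 fold changes were -0.54 and -0.34 (edgeR adjusted p = 0.00769 and 0.00593). With both trends removed, Adamts14 (-0.28, adjusted p = 0.0102) and Loxl3 (-0.25, adjusted p = 0.0208) were called, and Adamts2 (-0.14) and Loxl1 (-0.30) were not. Tgm2, another gene of this list, was at 0.04 and not called in the main test. With both trends removed it was called higher (0.22, edgeR adjusted p = 0.000316).

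Of 11 tested genes whose products bind collagen or take part in fibril assembly, 4 were lower (36.4%, against 8.32% of all tested genes) and 0 higher, with a median of -0.12. Sparc, a secreted collagen-binding protein, was at 510.1 ± 17.4 CPM with Areg and 611.4 ± 43.0 CPM in control (log2 fold change -0.26, edgeR adjusted p = 0.00286). Fn1, the fibronectin gene, was at 832.2 ± 22.2 CPM with Areg and 952.0 ± 29.9 CPM in control (log2 fold change -0.19, edgeR adjusted p = 0.00645). Tnxb, which encodes tenascin X, and Prelp, a leucine-rich repeat proteoglycan gene, had log2 fold changes of -0.45 and -0.31. With the trends removed, Prelp (-0.20, adjusted p = 0.000827) and Sparc (-0.23, adjusted p = 0.000625) were still lower, and Tnxb (-0.13) and Fn1 (-0.07) were not called.

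Of 9 tested genes of collagen receptors, 1 was higher and 2 were lower, with a median of 0.06, against 8.34% higher and 8.32% lower over all tested genes. Itga2, the alpha chain of a collagen-binding integrin, had 42.1 ± 3.87 CPM in Areg libraries and 22.3 ± 1.22 CPM in control libraries (log2 fold change 0.91, edgeR adjusted p = 5.25e-07), a larger change than that of any of the 28 tested collagens, and stayed at 0.87 with the trends removed. Ddr1, a collagen-binding receptor tyrosine kinase gene, had 13.96 ± 1.83 CPM with Areg and 19.3 ± 2.47 CPM in control (log2 fold change -0.47, edgeR adjusted p = 0.00599). Mrc2, the gene of a receptor that takes up collagen, was lower by -0.32 on the log2 scale (edgeR adjusted p = 0.0358). Neither Ddr1 nor Mrc2 was called with the trends removed.

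Of 9 tested genes of collagen-degrading proteases, 1 was higher and 2 were lower, with a median of 0.02, against 8.34% higher and 8.32% lower over all tested genes. Mmp13, an interstitial collagenase in the mouse, was at 122.2 ± 8.11 CPM with Areg and 94.7 ± 7.34 CPM in control (log2 fold change 0.37, edgeR adjusted p = 0.000853), and was called with the trends removed (0.24, adjusted p = 0.00395). Mmp14, a membrane-bound collagenase, was at 513.0 ± 7.40 CPM with Areg and 598.1 ± 43.9 CPM in control (log2 fold change -0.22, edgeR adjusted p = 0.00757), and the gelatinase gene Mmp2 averaged 19.7 CPM with Areg and 25.4 CPM in control (log2 fold change -0.37, edgeR adjusted p = 0.0124). Neither of the lower genes was called with the trends removed.

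Of 22 tested regulators of collagen transcription, 2 were higher and 3 lower (13.6%), against 8.34% higher and 8.32% lower over all tested genes, with a median of 0.03. Ets1, a transcription factor gene, was higher at 673.6 ± 25.9 CPM with Areg and 540.5 ± 44.7 CPM in control (log2 fold change 0.32, edgeR adjusted p = 0.00139). Foxf1, a forkhead factor gene of liver mesenchyme, was lower at 35.3 ± 1.57 CPM with Areg and 44.6 ± 4.35 CPM in control (log2 fold change -0.33, edgeR adjusted p = 0.00308). Both were called with the trends removed, at 0.30 and -0.23. Klf4 and Cebpb had log2 fold changes of -0.21 and -0.26 (edgeR adjusted p = 0.00757 and 0.0113) and were not called with the trends removed.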

How the data were processed

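Poly-A RNA of 5 Areg and 5 control libraries was sequenced with TruSeq chemistry, per the labels' protocols. The deposited files hold estimated counts and TPM per transcript for 118489 transcripts, per the file headers. Tools named in the submitters' processing notes are bcl2fastq 2.19, kallisto 0.44.0, DESeq2 and GRCm38.p6. Neither the transcript set nor the strand setting is given in the sources used here. kallisto splits reads between similar or overlapping transcripts by estimation, so such genes are uncertain.

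Transcripts were joined to GENCODE M21 genes of GRCm38. It matched 116816 of them, leaving 1673 with 0.736 to 0.778% of all counts unused. Estimated counts were summed per gene and rounded, and TPM were summed per gene. Groups came from the labels. Areg was compared with control in edgeR 4.0.16 under R 4.3.3 by the robust quasi-likelihood test with TMM factors, filterByExpr (minimum count 10, minimum total 15), no covariates and Benjamini-Hochberg adjustment over 13362 genes at 0.05. The biological coefficient of variation was 9.37%. The test was checked on simulated data. No library was a copy of another: chi-square per degree of freedom between libraries of a group was 3.74 to 50.4. Intervals are 95% intervals of the fitted change.

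GC content and length per gene were means over its transcripts weighted by their mean TPM over all libraries, so short transcripts weigh more than in counts. Trends were natural splines with 5 degrees of freedom, fitted per library and taken out as offsets. Alternatives were other normalization factors and filters, DESeq2 1.42.0, limma-voom and limma-trend (limma 3.58.1) on log2(TPM + 1) and log2(TPM + 0.1), coding transcripts or genes alone, a length offset, trends removed, a replicate block, and libraries left out. Removing GC alone, GC and length without controls 3 and 4, and GC and length with the block were added after seeing the data. The choice of controls 3 and 4 as the pair to leave out was made from the data as well.

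The members, classes and pathway lists were chosen with earlier results of these data known, so no p adjusted over a list is given. All tested collagens were named, and of each pathway list the called genes with the smallest p, at most 4. Genes of these lists that were called only with both trends removed were named as well. Ctage5 and Mkl1 have no match under these symbols. No protein sequences were used here.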

Additional observations from a re-analysis of the deposited data

Results flagged for a closer look

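In 6 of 56 groups of 5 libraries, over the 28 tested collagens in each group, the highest or lowest library stood far from the other 4. Chance flags about 1 in 20 groups, which is 2.8 of 56. Col1a1 was at 25.8 CPM in control 5, against 34.6 to 36.8 CPM in the other controls, which is why its groups overlapped. Col16a1 was at 29.8 CPM in Areg library 4, against 36.3 to 38.9 CPM in the other Areg libraries, and control 4 was low as well at 29.9 CPM. Col5a3 was at 16.1 CPM in control 1, against 11.6 to 12.6 CPM in the other controls. The other flags were in scarce genes. Col8a1 was at 1.21 CPM in Areg library 4, against 0.655 to 0.717 CPM in the other Areg libraries. Col9a3 was at 1.92 CPM in Areg library 3, against 1.07 to 1.23 CPM in the others. Col4a3 was at 0.570 CPM in Areg library 4, against 0.949 to 1.08 CPM in the others. The causes were not tested.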

How the results depend on the processing

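The main test called 2226 genes, 7 collagens lower and 0 higher, with a collagen median of -0.10. DESeq2's size factors, upper quartile factors, other filters, DESeq2, limma-voom and coding genes or transcripts alone gave 7 to 9 lower collagens. Leaving out each library in turn gave 1364 genes (without Areg replicate 2) to 2314 genes, and 6 to 8 lower collagens. On log2(TPM + 1) 856 genes and 3 lower collagens were called, on log2(TPM + 0.1) 868 and 3, and with the length offset 1149 and 4. Among all called genes 50.0% were higher in the main test, 37.6% on log2(TPM + 1), 37.4% on log2(TPM + 0.1) and 61.7% with the length and GC trends removed. With those trends removed 3 collagens were lower and 1 higher (median 0.04), and with the GC trend alone 3 were lower (median 0.01). In the pathway lists, removing both trends added calls besides the losses given above. Tgm2, Srf, Smad3, P4hb and Itga1 were then called higher, and Lum, Cd36, Mia3 and Sec23a lower. Without controls 3 and 4, 11 were lower, and 4 with both trends also removed (median 0.00). The cause of these changes was not tested.

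The replicate block gave 2357 genes and 8 lower collagens, Col4a1 added. Same-numbered libraries correlated at -0.0465 to 0.144 in their deviations, and 2 of 5 Areg libraries correlated best with their own number. The labels state no pairing, and these correlations cannot show whether same-numbered samples were paired. The block with length and GC trends removed gave 3 lower and 2 higher collagens (median 0.05), with 61.3% of all called genes higher, and there Col4a2 turned to 0.13 (edgeR adjusted p = 0.0234).

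Col1a2 kept its call in all 30 alternatives, at log2 fold changes of -0.39 to -0.18. Col6a3 and Col3a1 lost it in 3, Col6a2 and Col5a1 in 4, Col6a1 in 6 and Col1a1 in 11. Among genes not called in the main test, Col4a1 was called lower in 10 alternatives. Col4a2, Col14a1 and Col16a1 were called lower in 3 each and Col5a2 in 1, and Col13a1 was called higher in 2. Depth limits the 13 tested collagens under 10 CPM and the 16 untested ones.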
